A study of Mus musculus with 12 samples.

Results

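The level of 10 genes of inflammatory signalling was measured in the lumbar spinal cord of mice: the cytokines Tnf, Il1a, Il1b, Il6 and Tgfb1, the interleukin-1 receptor antagonist Il1rn, the NF-kB subunit genes Nfkb2 and Relb, and the NF-kB inhibitors Nfkbia and Tnfaip3. They were taken by gene identifier from tables of 33906 identifiers, and all 10 were found. RNA was sequenced after poly(A) selection from 12 mice, 3 in each of 4 groups. Group H held healthy wild-type mice. All other mice were of a model of amyotrophic lateral sclerosis (ALS). Its strain and transgene, and the age of the mice, are not named in the sources used here. Group P was fed phosphate-buffered saline, group C received manganese-doped carbon dots, a nanozyme with activity like that of superoxide dismutase, and group E was read as the group given edaravone, a radical scavenger used in ALS. The series text lists a group coded E but describes edaravone under the code D, so the reading of E rests on elimination. Mice are numbered as in the labels: 1, 2 and 4 in H, 66, 67 and 74 in P, 79, 84 and 85 in C, and 75, 77 and 90 in E.

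TNF and interleukin-1 bind receptors that activate the IkB kinase complex, which marks the inhibitor IkB-alpha (the product of Nfkbia) for destruction and frees NF-kB to enter the nucleus. NF-kB then switches on genes that include the cytokines themselves, the precursor of the noncanonical subunit p52 (Nfkb2), its partner RelB, and the brakes Nfkbia and Tnfaip3 (A20), which close the loop. Microglia, the resident macrophages of the spinal cord, are a main source of these cytokines in nervous tissue, and several of the cytokine messages carry AU-rich elements that shorten their life.

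Sequences of the kinds that this loop is known for are shown: promoters that hold the NF-kB (kB) consensus or a TATA box, and AU-rich 3′ UTR sites. Promoters of 9 of the 10 genes were matched in RefSeq (GRCm38.p6), each a window of 300 bases around a transcript start, and Relb was not matched. The kB consensus, 10 bases long, was searched on both strands. It was found in 8.46% of 32851 promoters of 27025 genes. Capitals mark TATAAA in the Tnf promoter and matches to the kB consensus in the others.
Tnf promoter, chr17:35201958-35202257, minus strand: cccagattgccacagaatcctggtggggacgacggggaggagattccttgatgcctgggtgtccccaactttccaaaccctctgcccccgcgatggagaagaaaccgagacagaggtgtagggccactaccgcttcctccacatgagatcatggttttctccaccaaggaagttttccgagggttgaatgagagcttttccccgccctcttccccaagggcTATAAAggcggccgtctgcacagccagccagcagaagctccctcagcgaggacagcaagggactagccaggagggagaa
Nfkbia promoter, chr12:55492598-55492897, minus strand: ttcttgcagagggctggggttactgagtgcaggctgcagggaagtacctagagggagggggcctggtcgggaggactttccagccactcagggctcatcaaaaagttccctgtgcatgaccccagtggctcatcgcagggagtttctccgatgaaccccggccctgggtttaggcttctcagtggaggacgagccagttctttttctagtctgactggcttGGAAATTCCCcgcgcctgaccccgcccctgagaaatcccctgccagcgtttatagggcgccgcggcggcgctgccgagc
Nfkb2 promoter, chr19:46304487-46304786, plus strand: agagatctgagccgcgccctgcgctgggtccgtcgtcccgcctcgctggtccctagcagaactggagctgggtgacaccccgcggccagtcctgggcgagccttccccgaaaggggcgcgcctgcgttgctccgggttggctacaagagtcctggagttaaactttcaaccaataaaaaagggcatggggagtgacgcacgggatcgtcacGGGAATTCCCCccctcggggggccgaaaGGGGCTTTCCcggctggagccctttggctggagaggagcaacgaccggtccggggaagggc
Tnfaip3 promoter, chr10:19015361-19015660, minus strand: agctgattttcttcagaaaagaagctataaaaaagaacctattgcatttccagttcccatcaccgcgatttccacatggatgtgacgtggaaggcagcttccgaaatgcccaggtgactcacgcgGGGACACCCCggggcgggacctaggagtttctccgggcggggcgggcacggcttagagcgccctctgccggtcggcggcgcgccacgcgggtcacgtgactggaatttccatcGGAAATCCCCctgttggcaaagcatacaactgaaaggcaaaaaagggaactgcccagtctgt
Counted from the transcript start, with the base before it as -1, the Nfkbia match began at -29 and was read on the opposite strand (GGGAATTTCC). Nfkb2 had overlapping matches beginning at -39 and -38 and another at -11 (GGGGCTTTCC), and Tnfaip3 had matches at -125 and -12. Of 3 listed Nfkb2 starts only the first is shown. The windows of the others overlap each other and held matches at -236 and 11, and at -225. The matches at 11 and -225 are the same bases (GGGACTTTCC), which lie in both windows. The Il6 promoter held GGGATTTTCC at -44 and the Tgfb1 promoter GGGACCCCCC at -140. No match was found in the windows of Tnf, Il1a, Il1b and Il1rn (3 starts), nor at the other listed start of Tnfaip3. Sites outside the windows were not searched for, so this does not show that those genes lack kB sites. TATAAA stood at -29 in Tnf, -32 in Il1a and -31 in Il1b, in the window of 40 to 16 bases before the start where 1.99% of promoters hold it on the same strand. Neither motif's presence was taken as a binding site.

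The 3′ UTR sites below are from the GENCODE M21 transcripts, with capitals for the AU-rich nonamer TTATTTATT and, in Tnf, its overlapping copies.
Tnf 3′ UTR site: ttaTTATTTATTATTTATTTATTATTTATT
Nfkbia 3′ UTR site: ggaccacgttTTATTTATTgtgcttttgat
The Tnf site covers bases 435 to 464 of its 3′ UTR and the Nfkbia site bases 286 to 315. Tnf held 5 copies of the nonamer in 764 bases and Nfkbia 1, whereas Il1a, Il1b, Il1rn, Il6, Tgfb1, Nfkb2 and Relb held none. Over 21022 genes, each by its longest annotated 3′ UTR, 7.66% held the nonamer and 1.88% held it 2 or more times. The shorter pentamer ATTTA, present in 65.2% of genes, occurred 10 times in Il6, 8 times in Tnf, 4 times in Il1b and 3 times in Il1a, and not in Il1rn or Relb.

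Values are FPKM, a read level corrected for exon length and library size, and 16.8 to 19.8 M reads per library were recovered from them. Of all genes, 18119 had enough reads to test, 9 of the 10 described here among them. Il6 was not tested. Tested differences are group means of log2(FPKM + 1) from limma with Benjamini-Hochberg adjustment over all 18119 genes, given ± standard error with n = 3 mice per group. This scale understates the change of low genes, so ratios of mean FPKM are given beside it. Some libraries stood apart by markers of other tissues. The sum of 5 skeletal muscle markers was 1850 FPKM in mouse 1 of H against 19.8 and 165 in the other H mice. It was 145 in mouse 74 of P against 4.25 and 8.74 in the other P mice, and 35.7 in mouse 90 of E against 5.59 and 2.19 in the other E mice. Erythroid markers summed to 402 to 2580 FPKM in H against 107 to 388 in the ALS mice. Schwann cell markers summed to 361 to 833 FPKM in E against 38.3 to 227 elsewhere, with the highest value in mouse 90, and meningeal fibroblast markers to 123 to 256 against 6.61 to 62.8. The part of these differences in the results was not tested. Astrocyte, oligodendrocyte, microglial and motor neuron markers of the labelled tissue were detected in every library.

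In saline-treated ALS mice, 7 of the 10 genes were higher than in wild type by the test: Tnf, Il1a, Il1b, Il1rn, Tgfb1, Nfkb2 and Tnfaip3. Of all tested genes, 12.2% were called higher in that comparison. The median difference was 0.54 for the 4 NF-kB genes, beside 0.07 over all genes. The 7 genes also had every P value above every H value, as did 26.4% of all tested genes. Relb and Nfkbia did not pass, and Il6 was near the detection floor in every library. Tnf, Il1b and Il1rn reached 10 reads in ALS libraries only, and Il1a reached it in 1 H library. These 4 therefore entered the test through the groups in which they were high, so that neither a count nor a median over them is a support.

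**Figure D1:**
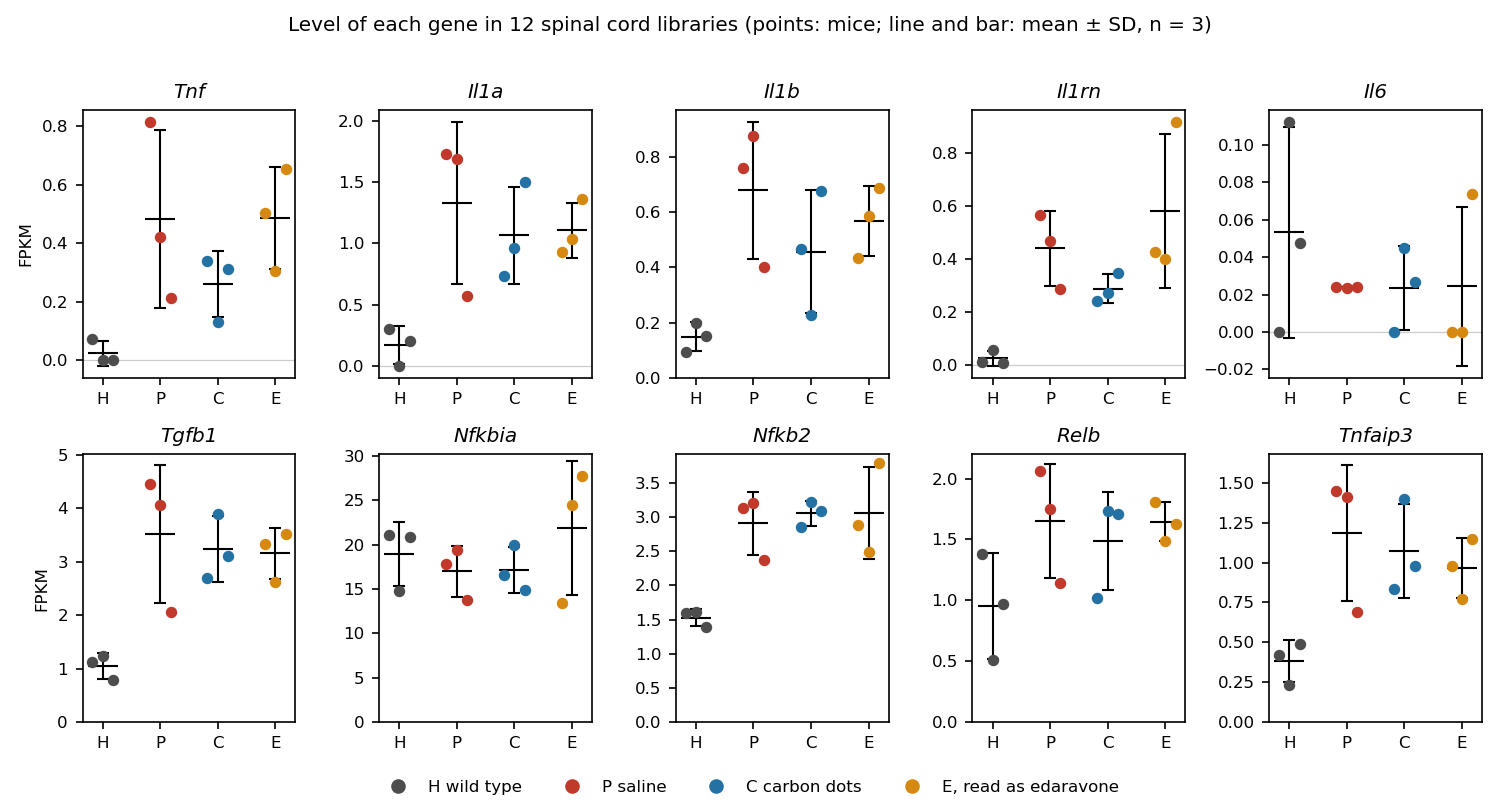
FPKM of each of the 10 genes (vertical axis, linear, its own scale per gene) in the 12 libraries by group (horizontal axis), with points for mice and a line and bar for mean ± SD, n = 3. In 7 genes all 9 ALS points lie above all 3 wild-type points, while Nfkbia overlaps throughout and Il6 stays at or under 0.112 FPKM.

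Tnf (GRCm38 chr17:35199381-35202007, minus strand, protein coding) encodes tumour necrosis factor. Its level was 0.0727, 0 and 0 FPKM in H, from 2 reads in all. It was 0.813, 0.422 and 0.215 in P, 0.34, 0.132 and 0.314 in C, and 0.504, 0.306 and 0.654 in E. Every ALS mouse was above every wild-type mouse, and the 3 ALS groups overlapped. P exceeded H by 0.52 ± 0.13 (adjusted p = 0.026) and E exceeded H by 0.53 ± 0.13 (adjusted p = 0.0233). C against H was 0.30 ± 0.13 (adjusted p = 0.187), which passed at 0.0371 with a pseudocount of 0.1 and at 0.035 with limma-voom. The calls in P and E were lost without a filter on low reads (adjusted p = 0.0731 and 0.0671) and with an FPKM filter (0.0509 and 0.0503), and the call in P also with only those groups in the fit (0.0587). The P call was lost too without any 1 of mice 2, 4, 66 and 67 (adjusted p of 0.0573 to 0.099), and the E call without any 1 of mice 2, 4, 75 and 90 (0.0551 to 0.0913). The summed reads were 41 in P, 22 in C and 41 in E against 2 in H, a ratio of P to H of 20.8 with an exact 95% interval of 5.41 to 178 that covers counting error only.

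Il1a (chr2:129299610-129309972, minus strand) encodes interleukin-1 alpha, which signals through the same receptor as interleukin-1 beta and acts as an alarm signal of damaged cells. It read 0.302, 0 and 0.205 FPKM in H, 1.73, 1.69 and 0.566 in P, 0.734, 0.962 and 1.5 in C, and 0.927, 1.04 and 1.36 in E. No ALS value overlapped H, and mouse 74 was the lowest ALS mouse. The difference from H was 0.96 ± 0.21 in P (adjusted p = 0.0126), 0.81 ± 0.21 in C (adjusted p = 0.0347) and 0.86 ± 0.21 in E (adjusted p = 0.0207). By mean FPKM the ratios to H were 7.87, 6.30 and 6.57. Without a filter the calls in C (adjusted p = 0.0937) and E (0.0565) were lost. Leaving out 1 mouse ended the call in P for mice 2, 66 and 67 (up to 0.0638), in C for mice 1, 2, 4, 84 and 85 (up to 0.143) and in E for mice 2 and 90 (up to 0.0879). An exon of Gm14023 on the other strand covers 11.2% of the Il1a exon bases, and whether the counting used strand is not stated, so their reads cannot be told apart.

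Il1b (chr2:129364570-129371139, minus strand) encodes interleukin-1 beta, made as a precursor that caspase-1 cuts. It read 0.0937, 0.2 and 0.152 FPKM in H, 0.76, 0.876 and 0.401 in P, 0.467, 0.228 and 0.675 in C, and 0.434, 0.584 and 0.687 in E. The 9 ALS values again lay above H, though mouse 84 of C at 0.228 stood close to mouse 2 of H at 0.2. The test gave 0.54 ± 0.13 for P (adjusted p = 0.0189), 0.45 ± 0.13 for E (adjusted p = 0.0409) and 0.33 ± 0.13 for C (adjusted p = 0.131). Without a filter the calls were lost in P (adjusted p = 0.0573) and E (0.107), and in E also with an FPKM filter (0.0727) and median-ratio scaling (0.052). The P call was lost without any 1 of mice 1, 2, 66 and 67 (0.0503 to 0.082), and the E call without any 1 of the 6 mice of E and H (0.0524 to 0.131). Mean FPKM was 4.57 times that of H in P, 3.07 times in C and 3.83 times in E.

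Il1rn (chr2:24336853-24351494, plus strand) encodes the antagonist that occupies the interleukin-1 receptor without activating it. It was close to absent from wild-type cord, at 0.0108, 0.0591 and 0.0104 FPKM from 8 reads in all. It rose to 0.565, 0.469 and 0.287 in P and to 0.427, 0.402 and 0.915 in E, and it read 0.242, 0.274 and 0.349 in C. Mouse 90 of E was the highest of all 12. The differences from H were 0.48 ± 0.11 in P (adjusted p = 0.0174), 0.61 ± 0.11 in E (adjusted p = 0.00577) and 0.33 ± 0.11 in C (adjusted p = 0.0978). The C value passed with a pseudocount of 0.1 (adjusted p = 0.00763), with limma-voom (0.0106) and with only those groups in the fit (0.0173). The P call was lost without a filter (adjusted p = 0.0546), without mouse 66 (0.0822) and without mouse 67 (0.0597), and an FPKM filter left the gene untested. Summed reads gave ratios to H of 16 in P (7.87 to 37.9), 10.3 in C (5.01 to 24.8) and 20.9 in E (10.4 to 49.3), for counting error only.

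Il6 (chr5:30013114-30019981, plus strand), the gene of interleukin-6, had 16 reads in the 12 libraries together. It was listed at 0 in 1 H, 1 C and 2 E libraries, and its highest value was 0.112 FPKM, in a wild-type mouse. The 7 reads of H against 3 in each ALS group gave a ratio of P to H of 0.435 with an interval of 0.0726 to 1.91, so no difference was detectable at this depth. It was the only one of the cytokine genes with no ALS value above the highest H value.

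Tgfb1 (chr7:25687002-25705077, plus strand) encodes transforming growth factor beta 1, a cytokine that restrains inflammation and that microglia need to keep their identity. It was the most abundant of the cytokine genes, at 1.13, 1.23 and 0.78 FPKM in H. It reached 4.45, 4.06 and 2.05 in P, 2.7, 3.9 and 3.11 in C, and 3.33, 2.62 and 3.52 in E. No ALS value overlapped H, and mouse 74 was again lowest. The differences from H were 1.10 ± 0.20 in P (adjusted p = 0.00551), 1.04 ± 0.20 in C (adjusted p = 0.0095) and 1.02 ± 0.20 in E (adjusted p = 0.00753), or 3.35, 3.09 and 3.01 times the mean FPKM. This gene and Nfkb2 were the members called against H in all 3 ALS groups under every alternative and every library left out that was run.

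Nfkb2 (chr19:46304320-46312385, plus strand) encodes p100, the precursor of the p52 subunit, which both holds RelB in the cytoplasm and, once cut, partners it. Its level was 1.59, 1.61 and 1.39 FPKM in H, 3.14, 3.21 and 2.38 in P, 2.86, 3.22 and 3.09 in C, and 2.89, 2.49 and 3.8 in E. The wild-type values lay close together and below all ALS values. The differences were 0.62 ± 0.13 in P (adjusted p = 0.00929), 0.68 ± 0.13 in C (adjusted p = 0.00825) and 0.67 ± 0.13 in E (adjusted p = 0.00613), near a doubling of mean FPKM (ratios 1.90, 2.00 and 2.00). Exons of the opposite-strand genes AC114539.1 and Psd cover 11.6% and 6.52% of its exon bases, and its recovered reads, unlike those of the other 9 genes, were not whole numbers.

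Relb (chr7:19606217-19629438, minus strand) encodes the RelB subunit of the noncanonical pathway. Its level was 1.38, 0.505 and 0.968 FPKM in H, 2.06, 1.75 and 1.14 in P, 1.02, 1.73 and 1.71 in C, and 1.81, 1.49 and 1.63 in E. Mouse 1 of H overlapped P and C, while every E value lay above H. The test gave 0.45 ± 0.19 for P (adjusted p = 0.117), 0.36 ± 0.19 for C (adjusted p = 0.245) and 0.46 ± 0.19 for E (adjusted p = 0.12), so none passed. The 95% confidence interval for P against H ran from 0.05 to 0.85, and without mouse 74 the gene passed narrowly (0.60, adjusted p = 0.0496).

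Nfkbia (chr12:55489410-55492647, minus strand) encodes IkB-alpha and is a rapid target of the NF-kB it inhibits. It was by far the most abundant of the 10 per length, at 21.1, 14.8 and 20.9 FPKM in H. It read 17.8, 19.4 and 13.8 in P, 16.6, 19.9 and 14.9 in C, and 13.4, 24.5 and 27.7 in E. All groups overlapped, and E had both the lowest and the highest mouse. P against H was -0.15 ± 0.24 (adjusted p = 0.706) with a 95% confidence interval of -0.66 to 0.37. C against H was -0.13 ± 0.24 (adjusted p = 0.771) and E against H 0.15 ± 0.24 (adjusted p = 0.702). Those intervals do not show equal levels.

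Tnfaip3 (chr10:19000910-19015657, minus strand) encodes A20, a ubiquitin-editing enzyme that shuts down signalling from the TNF and interleukin-1 receptors. Its level was 0.421, 0.234 and 0.488 FPKM in H, 1.45, 1.41 and 0.692 in P, 0.832, 1.4 and 0.979 in C, and 0.981, 0.77 and 1.15 in E. Every ALS mouse lay above wild type, with mouse 74 lowest. P exceeded H by 0.65 ± 0.16 (adjusted p = 0.0194) and C by 0.58 ± 0.16 (adjusted p = 0.0415). E against H was 0.51 ± 0.16 and missed the threshold (adjusted p = 0.051), although it passed with a pseudocount of 0.1 (adjusted p = 0.0271), limma-voom (0.026) and only those groups in the fit (0.0334). The P call was lost without a filter (adjusted p = 0.0531), with only those groups in the fit (0.0503) and without any 1 of mice 2, 66 and 67 (0.0741 to 0.0899). The C call was lost without a filter (adjusted p = 0.106), with an FPKM filter (0.0543), with median-ratio scaling (0.0508) and without any 1 of mice 1, 2, 79, 84 and 85 (0.0513 to 0.161). Mean FPKM was 3.11, 2.81 and 2.53 times that of H in P, C and E.

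**Figure D2:**
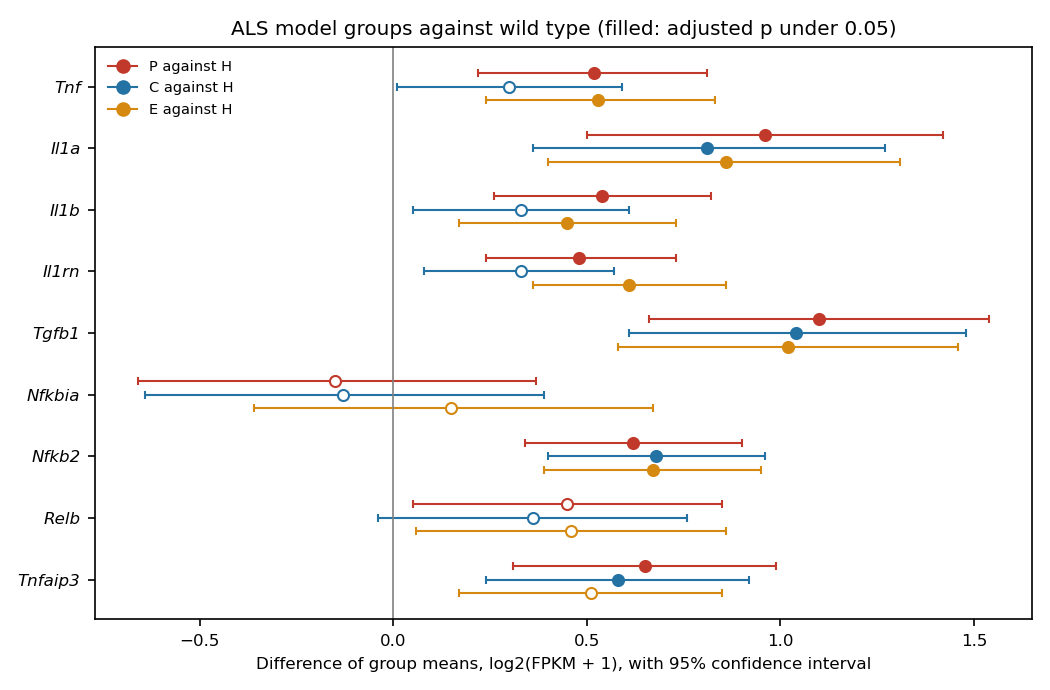
Difference of each ALS group from wild type (horizontal axis, log2(FPKM + 1)) with 95% confidence intervals for the 9 tested genes (rows), filled where the adjusted p was under 0.05. The Tgfb1 points lie farthest right, at 1.02 to 1.10, and the Nfkbia intervals span 0 in all 3 groups.

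Counted by group against H, 7 of the 10 genes were called in P, 4 in C and 6 in E, all of them higher. Over all genes, 7.25% were called higher in C and 11.0% in E. The 4 genes of C were Il1a, Tgfb1, Nfkb2 and Tnfaip3. The 6 of E were Tnf, Il1a, Il1b, Il1rn, Tgfb1 and Nfkb2. Without overlap with H stood 7 genes in C and 8 in E, beside 22.7% and 24.9% of all tested genes. These comparisons share the same H mice, and the counts do not show that the groups differ from each other. The P count moved when single mice were left out: it was 2 without mouse 66 or mouse 67, 3 without mouse 2 of H and 8 without mouse 74. Calls over all genes moved in the same direction, from 2807 to 933 without mouse 66, 1272 without mouse 67, 1122 without mouse 2 and 3535 without mouse 74. The shift was thus not particular to these 10 genes. For C and E the range of calls over all genes is given at the end. The C count was 2 without any 1 of mice 84, 85, 1 and 2, and the E count was 3 without mouse 90 or mouse 2. Without mouse 1 of H, with its muscle markers, the counts were 6 in P, 2 in C and 5 in E. Median-ratio scaling split the calls over all genes more evenly in P against H, at 1407 higher of 2634 calls against 2216 higher of 2807 calls without it, and the count of these 10 genes was 7 in P, 3 in C without Tnfaip3 and 5 in E without Il1b.

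Whether either treatment changed these genes was read from the comparisons with saline. None of the 10 was called in C against P or in E against P. Over all tested genes, 1 was called in C against P, the gene model Gm10479 (0.00552%), and 0 in E against P (0%). An unadjusted p under 0.05 by limma was found for 1802 genes (9.95%) in C against P and for 889 (4.91%) in E against P. No member was free of overlap between C and P or between E and P, beside 17.1% and 9.01% of all tested genes in either direction. The largest difference of C from P was that of Tnf, at -0.22 ± 0.13 (adjusted p = 0.631, 95% confidence interval -0.51 to 0.08). Il1b in C was -0.21 ± 0.13 (interval -0.49 to 0.08), Il1a -0.15 ± 0.21 (-0.60 to 0.31) and Il1rn -0.16 ± 0.11 (-0.41 to 0.09), each with an adjusted p of 0.639 or more. In mean FPKM, C stood at 0.542 times P for Tnf, 0.672 for Il1b, 0.654 for Il1rn and 0.8 for Il1a, with overlapping mice in each. Tgfb1, Nfkb2, Relb, Nfkbia and Tnfaip3 lay between -0.09 and 0.06 in C against P. In E against P the 9 values ran from -0.14 for Tnfaip3 to 0.30 for Nfkbia (interval -0.22 to 0.81), each with an adjusted p of 0.998. For Il1a the intervals reach down to -0.60 in C and -0.56 in E.

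**Figure D3:**
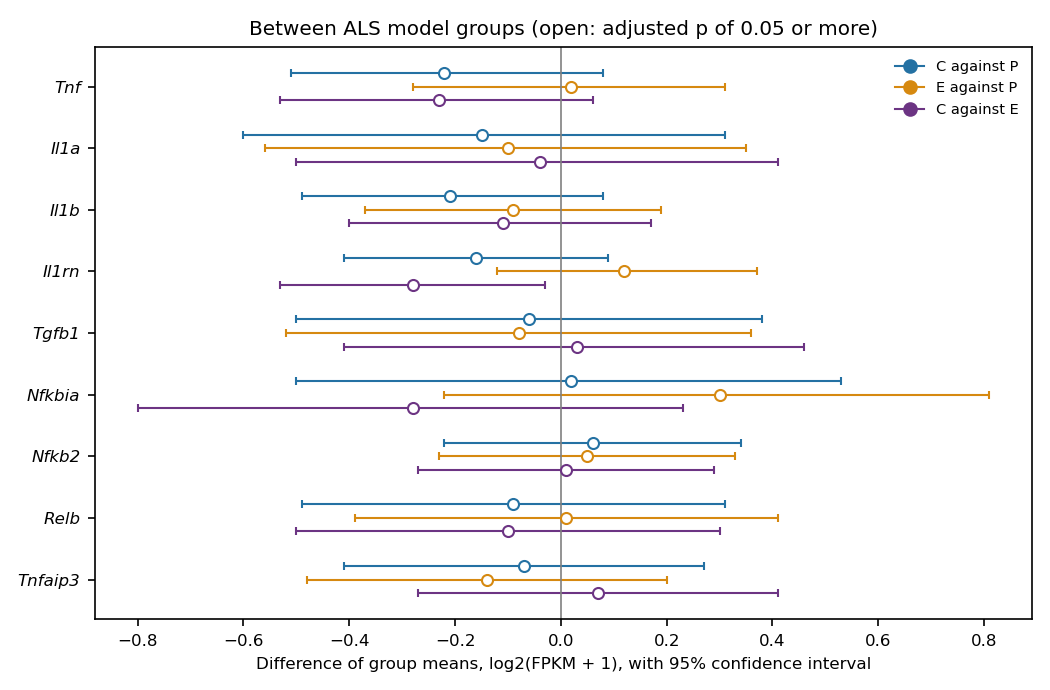
Differences between the 3 ALS groups for the 9 tested genes (rows), on the log2(FPKM + 1) scale with 95% confidence intervals. All points are open because none passed, and only the Il1rn interval for C against E (-0.53 to -0.03) leaves out 0.

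Between the treatments, Il1rn was lower in C than in E in every mouse (0.242 to 0.349 against 0.402 to 0.915 FPKM), and it was the only gene of the 10 without overlap in that comparison. Of all tested genes, 16.9% had no overlap in either direction. The difference was -0.28 ± 0.11, with an unadjusted p of 0.0294 in limma's test and an adjusted p of 0.404. Over all genes 0.171% were called in C against E, none of them a gene of the 10. Summed Il1rn reads in C were 0.495 times those of E (0.375 to 0.648, counting error only). E is also the group with the highest Schwann cell, meningeal fibroblast and border or blood macrophage markers, the last at 5.63 to 11.9 FPKM against 4.95 to 7.28 in C. The part of those cells in the Il1rn difference was not tested.

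The levels were also set beside the sum of 10 microglial markers, all detected. That sum was 87.9 to 103 FPKM in H, 222 to 415 in P, 223 to 305 in C and 193 to 275 in E, or 3.36, 2.79 and 2.58 times the H mean. More cells of a type and more RNA per cell cannot be told apart in bulk tissue. Per 100 FPKM of the marker sum, Tgfb1 stood at 1.14 ± 0.342 in H, 1.11 ± 0.202 in P, 1.23 ± 0.0404 in C and 1.31 ± 0.0872 in E (SD, n = 3), and all groups overlapped. Tnfaip3 stood at 0.402 ± 0.118, 0.374 ± 0.0775, 0.404 ± 0.0466 and 0.400 ± 0.0443, again with overlap throughout. Il1b per marker sum also overlapped H in each ALS group. Il1rn was the only gene still above H without overlap in all 3 groups, at 0.0298 ± 0.0325 in H against 0.139 ± 0.0122 in P, 0.111 ± 0.0233 in C and 0.240 ± 0.104 in E. Tnf lay above H in P and E, from 2 wild-type reads, and Il1a in E (0.469 ± 0.113 against 0.178 ± 0.169). Others lay below the H range. Because the marker sum itself rose 2.58 to 3.36 times, a gene of unchanged FPKM falls in this ratio by arithmetic alone. Nor was the share of all tested genes above or below H on this ratio computed. Nfkbia did in all 3 groups, at 20.2 ± 3.36 in H against 5.6 ± 1.14, 6.6 ± 0.816 and 9.44 ± 4.05. Nfkb2 did in P and C (0.957 ± 0.174 and 1.18 ± 0.115 against 1.65 ± 0.267 in H), and Relb in P (0.526 ± 0.0396 against 1.02 ± 0.486). These ratios were chosen after the data were seen and carry no test.

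**Figure D4:**
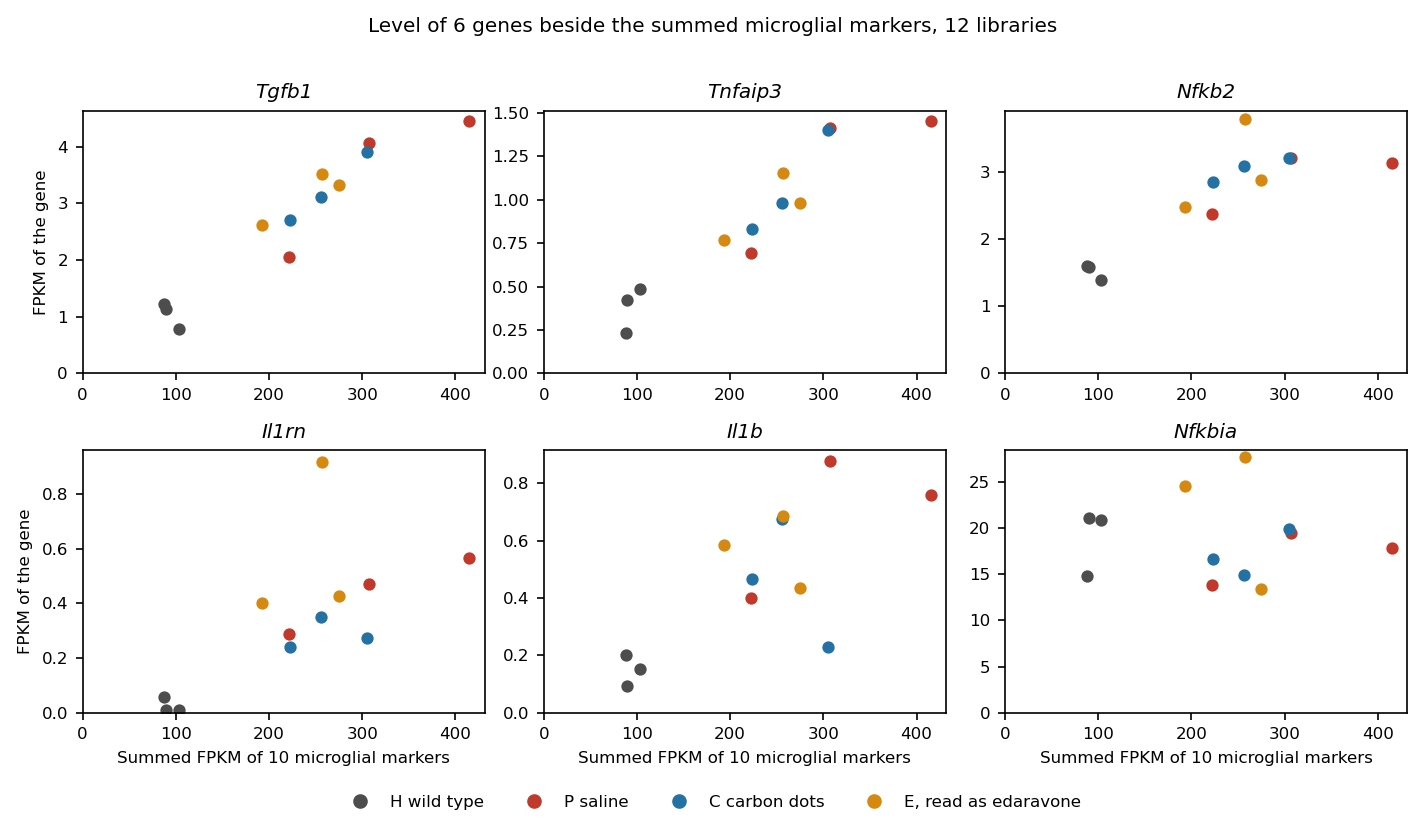
FPKM of 6 of the genes (vertical axes) against the summed FPKM of 10 microglial markers (horizontal axis) in the 12 libraries, coloured by group. Across the ALS mice Tgfb1 and Tnfaip3 are higher where the marker sum is higher (rho = 0.97 for each), with mouse 66 highest in both, while Nfkbia shows no such order.

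Within the 9 ALS mice alone, Tgfb1 and Tnfaip3 followed the microglial sum, and they followed the astrocyte sum as closely. The share of all tested genes that pass the same relation was not computed, so the relation is not shown to be particular to these genes. The sums of microglial and of astrocyte markers themselves ran together over these mice (r = 0.96, rho = 0.98), so that a relation to one cannot be told apart from a relation to the other. The astrocyte sum was 681 to 792 FPKM in H, 1630 to 2820 in P, 1840 to 2270 in C and 1490 to 2170 in E. It was mostly Gfap, at 2110 of 2820 FPKM in mouse 66 and 1010 of 1490 in mouse 77. Of the other markers, Aqp4, Aldh1l1 and Slc1a2 were also higher in mouse 66 than in mouse 77. Slc1a3 (19.5 against 21.8) and Gja1 (64.0 against 64.5) were not, so the sum does not stand for every astrocyte marker. On log scales, Tgfb1 had r = 0.87 with the microglial sum (exact permutation p = 0.00236, adjusted 0.0106 over 18 relations) and r = 0.89 with the astrocyte sum (exact permutation p = 0.00144, adjusted 0.00937). Its rho was 0.97 (exact permutation p = 0.000165, adjusted 0.00149) and 0.93 (exact permutation p = 0.00075, adjusted 0.00337). Tnfaip3 had r = 0.88 (exact permutation p = 0.000653, adjusted 0.00937) and r = 0.89 (exact permutation p = 0.00156, adjusted 0.00937), with rho = 0.97 and 0.93 at the same p-values as Tgfb1. Without mice 66 and 77, the 2 farthest from the median of either sum, r was 0.92 and 0.90 for Tgfb1 and 0.93 and 0.86 for Tnfaip3. For Relb r was 0.75 with the microglial sum (exact permutation p = 0.0195, adjusted 0.0688) and rho 0.87 (exact permutation p = 0.00451, adjusted 0.0135), with r = 0.86 without those mice. Its values with the astrocyte sum were r = 0.74 (exact permutation p = 0.0229, adjusted 0.0688), rho = 0.88 (exact permutation p = 0.00308, adjusted 0.0111) and r = 0.81 without those mice. The other 6 genes did not pass with either sum. Tnf had r = 0.53 with the microglial sum (exact permutation p = 0.137, adjusted 0.225) and 0.02 without mice 66 and 77, so that its value rested on them. Il1rn had r = 0.29 (exact permutation p = 0.427, adjusted 0.549) and Nfkbia r = -0.08 (exact permutation p = 0.837, adjusted 0.837). The mice of the 3 ALS groups were pooled here, since 3 mice allow no value within a group. Relations to the marker sums were not in the planned design, and the astrocyte sum was added after the data were seen. Their p-values are therefore descriptions.

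Over the 9 ALS libraries Tgfb1 correlated with Tnfaip3 at r = 0.97 and with Relb at r = 0.84, as a description. Among 12700 named genes with a mean of at least 1 FPKM, those with the pattern most like Tgfb1 over the 12 libraries were Rab7b (r = 0.982), Nfam1 (0.981) and Slco2b1 (0.981). For Nfkb2 they were Rab7b (0.984), Tcn2 (0.979) and Ppp1r18 (0.979), and for Tnfaip3 Ptk2b (0.978), Inpp5d (0.977) and Plcg2 (0.977). For Il1rn they were Parp14 (0.988), Irf9 (0.975) and Ifi207 (0.974), and for Tnf Tifa (0.965), Zc3hav1 (0.954) and Herc6 (0.945). Il1a was most like Elk3 (0.964), Blnk (0.961) and Map3k14 (0.961), Relb like Trib1 (0.935), Ankrd13a (0.931) and Ddx21 (0.923), and Il1b like Lta4h (0.918), Angel2 (0.915) and Ftl1 (0.913). Nfkbia was most like Sgk1 (0.88), Ptpdc1 (0.874) and Syde2 (0.851), the lowest values of the 9 genes. These coefficients include the step between wild-type and ALS mice.

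For the other genes of the pathway, counts are set against the 12.2% of all tested genes called higher in P, 7.25% in C and 11.0% in E, and medians against 0.07 over all genes in P. Some listed genes were near 0 in H, among them Tnfsf11 (0 FPKM in every H mouse), Osm (mean 0.0507) and Cxcl10 (mean 0.0421). Such genes could enter the test mainly through the ALS groups, and how many did so was not counted. The counts and medians of the lists are therefore descriptions and no support. In P against H, 9 of 14 receptor and decoy genes were higher and none lower, with a median of 0.62. The counts were 7 in C and 9 in E against H. Tnfrsf1a, the main TNF receptor, went from 5.54 ± 0.866 FPKM in H to 21.1 ± 6.29 in P (1.72 ± 0.23, adjusted p = 0.00108). Among TGF-beta receptor genes, Tgfbr1 rose from 5.29 ± 0.874 to 17.7 ± 5.49 (1.54 ± 0.18, adjusted p = 0.000569) and Tgfbr2 from 2.64 ± 0.541 to 8.42 ± 2.39 (1.35 ± 0.19, adjusted p = 0.00171), whereas Tgfbr3 did not pass (0.28 ± 0.14, adjusted p = 0.198). The decoy receptor Il1r2 read 0.00 ± 0.11 (adjusted p = 0.999).

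Of 21 related ligands, 18 were tested and 9 were higher in P than in H, with a median of 0.50, beside 12.2% and 0.07 over all tested genes. They included Clcf1, a cytokine of the ciliary neurotrophic factor family (1.32 ± 0.22, adjusted p = 0.00368), the alarmin Il33 (0.74 ± 0.15, adjusted p = 0.00877) and Tgfb2 (0.75 ± 0.15, adjusted p = 0.0091). Il18, another substrate of caspase-1, read -0.05 ± 0.15 (adjusted p = 0.863). Of 17 genes for processing and release, 10 were higher (median 0.54), against the same 12.2% and 0.07. Casp1, the protease that matures interleukin-1 beta, went from 1.46 ± 0.194 to 4.87 ± 1.35 FPKM (1.23 ± 0.16, adjusted p = 0.000939). Nlrp3, the inflammasome sensor that activates it, rose by 0.60 ± 0.11 (adjusted p = 0.00536), and Adam17, which sheds TNF from the membrane, by 0.65 ± 0.13 (adjusted p = 0.00821).

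Inside the cell, the canonical subunits Nfkb1 (0.42 ± 0.09, adjusted p = 0.013) and Rel (0.39 ± 0.11, adjusted p = 0.0342) were higher in P, and Rela read 0.40 ± 0.14 (adjusted p = 0.0637). Of 15 tested genes of IkB proteins and feedback inhibitors, 7 were higher (median 0.52), beside 12.2% of all tested genes and an all-gene median of 0.07. They were led by the atypical IkB proteins Bcl3 (1.62 ± 0.24, adjusted p = 0.0019) and Nfkbiz (0.79 ± 0.12, adjusted p = 0.00204), and by Socs3, a brake on cytokine receptors (1.70 ± 0.27, adjusted p = 0.00264). Nfkbib (0.00 ± 0.10) and Nfkbie (0.08 ± 0.18), the other classical IkB genes, did not pass, as Nfkbia did not. Of 25 kinases and adaptors, 8 were higher, with a median of 0.24, against those same all-gene values. Tab2 (0.71 ± 0.11, adjusted p = 0.00263), Irak4 (0.79 ± 0.15, adjusted p = 0.00596) and Ripk1 (0.54 ± 0.11, adjusted p = 0.00877) had the smallest p.

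Of 20 tested further NF-kB target genes, 14 were higher in P (median 0.86, the highest of the 8 lists) and none lower, beside 12.2% and 0.07 over all tested genes. Plau, the urokinase gene, rose by 2.34 ± 0.29 (adjusted p = 0.000739), the adhesion gene Icam1 by 1.27 ± 0.21 (adjusted p = 0.00365) and Bcl2a1d, which has near-identical copies, by 1.71 ± 0.21 (adjusted p = 0.000726). Nos2 (0.00 ± 0.06) and Cd83 (-0.01 ± 0.08) did not pass. The counts were 11 in C and 13 in E against H, beside 7.25% and 11.0% of all tested genes. Of 11 TGF-beta transducers and targets, 5 were higher in P (median 0.29), with Tgif1 at 1.16 ± 0.20 (adjusted p = 0.00464), Ski at 0.52 ± 0.14 (adjusted p = 0.03) and Smad3 at 0.48 ± 0.13 (adjusted p = 0.0334). Microglial and astrocyte markers moved with these lists, 9 of 10 and 5 of 6 being higher in P, and their part in the counts was not tested.

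**Figure D5:**
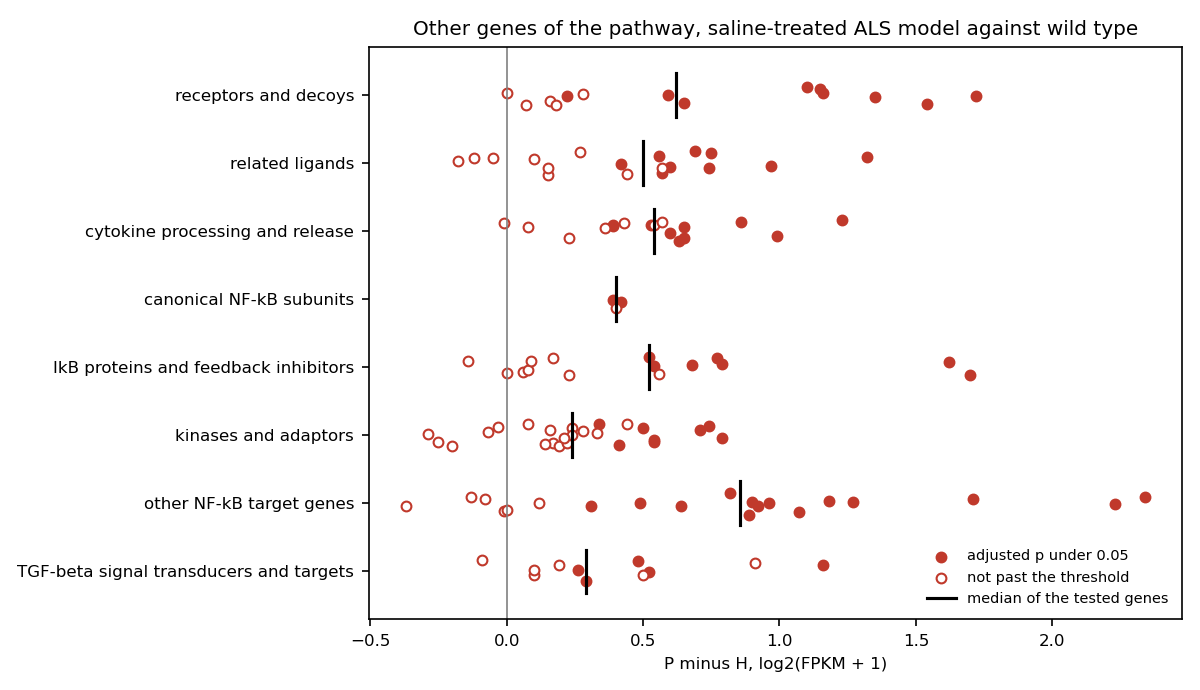
Difference of P from H (horizontal axis, log2(FPKM + 1)) for the tested genes of 8 pathway lists (rows), filled where the adjusted p was under 0.05, with a bar at each median. The medians run from 0.24 for kinases and adaptors to 0.86 for further NF-kB targets.

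No gene of the 8 lists was called in C against P or in E against P. In C against E, 1 gene was called, beside 0.171% of all tested genes. It was Lcn2, an iron-binding acute-phase gene among the NF-kB targets. Its level was 2.44 ± 0.473 FPKM in C, 11.7 ± 4.30 in E, 2.23 ± 0.747 in P and 0.737 ± 0.317 in H, and C was below E by -1.83 ± 0.26 (adjusted p = 0.0253). Lcn2 was singled out after its values were seen. E also had higher Schwann cell (361 to 833 against 67.8 to 178 FPKM in C) and meningeal fibroblast markers (123 to 256 against 23.8 to 52.1). The part of those cells in the Lcn2 difference was not tested.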

How the data were processed

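The authors deposited 1 table per group of FPKM values for 33906 identifiers. No header states the unit. It was read from the numbers: FPKM multiplied by the GENCODE M21 exon length gave, for 95.2 to 95.7% of low values (up to 50 reads), a whole number of reads within 0.02. The tools named in the submitters' processing notes are cutadapt, HISAT2 and featureCounts, with GRCm38, and their versions and strand use are not given there. GENCODE M21 matched 33829 identifiers, and no column lacked a sample. Recovered reads were 106.7 to 108.0% of the scaling total.

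A gene was tested when 3 libraries or more had the CPM of 10 reads in the median library and all libraries together had 15 reads, which left 18119 genes. The test was limma 3.58.1 (R 4.3.3) on log2(FPKM + 1) with 1 mean per group over 12 libraries, trended robust moderation, two-sided, threshold 0.05. The count test that the design allowed for was not used, since FPKM are not counts. The code was tested on simulated data. All 10 genes were named. From each pathway list up to 3 genes of smallest adjusted p in P against H were named, and for each gene the 3 of highest correlation. Other pathway genes with values were chosen after these were seen. The 10 genes and the lists were chosen with earlier results of these data known. Replicates are separate mice per the labels. Alternatives were another pseudocount, other filters, median-ratio scaling, limma-voom on recovered reads, fits of 2 groups and leaving out each mouse. The 3′ UTR elements of 1 of the genes are not reported here.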

Additional observations from a re-analysis of the deposited data

How the results depend on the processing

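No paired analysis was possible because no mouse number is shared between groups. Among the 10 genes, the count called in P against H was 3 without a filter on low reads and ranged from 2 to 8 when 1 mouse was left out. In C against H it was 2 without a filter and ranged from 2 to 3 when 1 mouse was left out. In E against H it was 3 without a filter and 3 with an FPKM filter, and ranged from 3 to 5 when 1 mouse was left out. Those counts were 0 under every alternative run in the comparisons between ALS groups.

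Counts over all genes moved by over 1.5 times as follows. Without a filter they were 1444 in P against H, 736 in C against H, 1469 in E against H, 5 in C against P, 3 in E against P and 4 in C against E. With only 2 groups in the fit they were 1471 in P against H and 4 in C against E. A pseudocount of 0.1 gave 0 in C against P and 17 in C against E, an FPKM filter 4 in C against P and 1 in E against P, median-ratio scaling 2 in C against P, and limma-voom 0 in C against P. Leaving out 1 mouse gave 933 to 3535 in P against H, 567 to 1915 in C against H, 1159 to 2230 in E against H, 0 to 2 in C against P, 0 to 2 in E against P and 0 to 56 in C against E. The cause of these shifts was not tested, other than that a fit without a filter adjusts over more genes and a left-out mouse leaves fewer libraries.

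Differences that changed sign did so only when 1 mouse was left out, and none of them was called. In C against P these were Tgfb1 (-0.32 to 0.10), Nfkbia (-0.12 to 0.11), Nfkb2 (-0.04 to 0.12), Relb (-0.24 to 0.05) and Tnfaip3 (-0.24 to 0.03). In E against P they were Tnf (-0.12 to 0.17), Il1a (-0.37 to 0.03), Il1rn (-0.02 to 0.20), Tgfb1 (-0.34 to 0.07), Nfkb2 (-0.08 to 0.15) and Relb (-0.14 to 0.12). In C against E they were Il1a (-0.19 to 0.07), Il1b (-0.22 to 0.00), Tgfb1 (-0.09 to 0.12), Nfkb2 (-0.09 to 0.14), Relb (-0.18 to 0.04) and Tnfaip3 (-0.04 to 0.15), and in E against H Nfkbia (-0.04 to 0.46).

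The pseudocount set the size of the low genes' differences. In P against H a pseudocount of 0.1 gave 2.15 for Tnf, 2.49 for Il1a, 1.61 for Il1b and 2.08 for Il1rn, and limma-voom gave 3.89, 3.66, 2.07 and 4.07. Depth limits Il6, with 16 reads in all, and Tnf and Il1rn in wild-type mice, with 2 and 8 reads.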
